A study of Mus musculus with 11 samples.

Results

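The AP-1 partner genes described here are the Jun genes Jun, Junb and Jund, the dimer partners Atf3 and Jdp2, and the Batf genes Batf, Batf2 and Batf3. They were taken by name, with earlier results of these data known, as 8 of the 55421 genes counted in each library, and all 8 passed the filter on low counts. Articular cartilage of mouse knees gave the poly(A) RNA, which was sequenced at 4 weeks from surgery, in which the medial meniscus had been destabilized (DMM) to model osteoarthritis. All animals were C57BL/6 mice aged 14 weeks. The contralateral, not operated knee of c-FosWT mice gave 4 libraries, the DMM knee of c-FosWT mice gave 3, and the DMM knee of mice labelled c-FosDCh gave 4. The label c-FosDCh is taken here to stand for loss of Fos in chondrocytes, the cells of cartilage. The sources used here do not give the allele, the Cre line or its promoter. The 11 libraries came from 8 animals, 3 of which gave both a contralateral and a DMM library. No contralateral knee of a c-FosDCh mouse was analysed here.

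AP-1 is a transcription factor made of pairs of leucine zipper proteins. Jun proteins pair with each other, with Fos proteins or with ATF and MAF proteins, and the pair reads a short palindromic site in promoters and enhancers. JUN is an early response factor that is activated by JNK kinases, JUNB and JUND can oppose it, ATF3 is a stress-induced repressor or activator, JDP2 mostly represses AP-1 sites, and the BATF proteins pair with Jun proteins in immune cells and recruit IRF factors. In cartilage, AP-1 is known for its control of chondrocyte differentiation and of matrix-degrading enzymes.

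The 3 Jun genes moved together over the libraries, so the 250 bases before their RefSeq start sites (GRCm38.p6) are printed here to show whether they hold the same short motifs. The regions are chr4:95052223-95052472 on the minus strand for Jun, chr8:84978749-84978998 on the minus strand for Junb and chr8:70697489-70697738 on the plus strand for Jund. Each run is written 5′ to 3′ on the gene's strand, ends just before the start site, and has every match to a searched motif in capitals.
Jun: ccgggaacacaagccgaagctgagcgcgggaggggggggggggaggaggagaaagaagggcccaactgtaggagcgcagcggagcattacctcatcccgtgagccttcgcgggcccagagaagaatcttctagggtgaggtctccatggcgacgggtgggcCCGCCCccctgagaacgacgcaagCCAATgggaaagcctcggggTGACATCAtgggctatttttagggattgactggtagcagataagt
Junb: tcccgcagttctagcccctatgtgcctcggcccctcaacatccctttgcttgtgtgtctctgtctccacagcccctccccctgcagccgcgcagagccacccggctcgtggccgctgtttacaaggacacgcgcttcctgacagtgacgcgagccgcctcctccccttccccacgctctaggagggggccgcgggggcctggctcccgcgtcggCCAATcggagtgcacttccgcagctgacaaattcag
Jund: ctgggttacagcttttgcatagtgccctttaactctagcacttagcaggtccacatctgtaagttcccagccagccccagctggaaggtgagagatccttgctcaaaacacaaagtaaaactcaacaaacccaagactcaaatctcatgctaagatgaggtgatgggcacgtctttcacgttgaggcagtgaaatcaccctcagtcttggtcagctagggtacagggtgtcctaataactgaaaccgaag
On both strands the search covered the AP-1 site TGANTCA, the cyclic AMP response element TGACGTCA, the Jun promoter type of AP-1 site TGACATCA, the STAT site TTCNNNGAA, the CCAAT box CCAAT, the GC box GGGCGG, the TATA box TATAAA and the CArG box, which binds serum response factor. TATAAA and CCAAT can lie inside a CArG box, and no other searched motif can lie wholly inside another. The Jun window held TGACATCA, which ends 38 bases before the start site and occurs in 2.93% of 32851 RefSeq promoter windows of the same length. It also held CCAAT, found in 33.8% of those windows, and a GC box on the opposite strand, found in 32.7%. The Junb window held CCAAT alone, which ends 32 bases before the start site. None of the 8 motifs lay in the Jund window, whose RefSeq start site is 1210 bases upstream of the start of the gene in GENCODE M21. TGANTCA, found in 6.75% of all windows, and TGACGTCA, found in 1.55%, were in none of these 3 windows. Of the other members, Atf3, Jdp2, Batf and Batf3 had RefSeq promoter entries too, and their windows were searched in the same way. GC boxes lay in the windows of Atf3, Batf and Batf3 and in windows 2 and 3 of Jdp2. Batf3 also held a match to the STAT site, TTCCACGAA, which ends 231 bases before its start site, and 7.02% of all windows hold such a site. The RefSeq start site of Atf3 lies 34706 bases from the start of the gene in GENCODE M21. These matches describe letters and were not tested as binding sites.

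The libraries held 13593454 to 18280558 gene counts, with a median of 16387548. Fos, the gene named in the labels, had 15.7 to 24.8 CPM (counts relative to the TMM-scaled library total) in contralateral libraries, 9.01 to 14.1 in c-FosWT DMM libraries and 10.9 to 33.0 in the libraries labelled c-FosDCh, so the RNA count did not show a loss of Fos in them. The sources used here do not say which exons the c-FosDCh allele lacks, and other cells of the dissected tissue can supply Fos RNA. Chondrocyte markers were present in every library, led by Prg4 and Col2a1, and all 22 were tested. Their summed level was 23600 to 45200 CPM in contralateral, 7280 to 19500 in c-FosWT DMM and 24800 to 91100 in c-FosDCh DMM libraries. Col2a1 alone stood at 4440 to 12300, 2330 to 6350 and 5290 to 11700 CPM in the same order. The mean log2 CPM of the 22 markers is called the chondrocyte score here. It was 8.0 ± 0.28 (SD, n = 4), 7.09 ± 0.86 (SD, n = 3) and 7.9 ± 0.57 (SD, n = 4). Markers of the blood-forming cells of bone marrow were also present: the 35 tested erythroid and granulocyte markers, led by Hbb-bs and Ngp, summed to 6300 to 18200 CPM, 16700 to 28800 CPM and 916 to 15200 CPM in the same order, and none was at 0 in any library. Their mean log2 CPM, called the marrow score here, was 6.55 ± 0.78 (SD, n = 4), 7.86 ± 0.37 (SD, n = 3) and 5.68 ± 1.7 (SD, n = 4). The lowest score was that of c-FosDCh DMM replicate 4 (3.34), which stands apart. Replicate 3 of the same group (5.52) came next, close to contralateral replicates 3 (5.93) and 2 (5.98). An exact two-sided permutation test of the score gave p = 0.0857 for DMM against contralateral c-FosWT libraries and the same for c-FosDCh against c-FosWT DMM libraries (adjusted p = 0.318 over 39 score tests). With 3 libraries against 4 the smallest p it can give is 0.0286, which for a single score cannot pass after adjustment over 39 tests, so the test says little here. The marrow score was higher in the DMM knee in 3 of 3 animals with both knees: 7.51 against 6.69, 7.81 against 5.98 and 8.24 against 7.6. Osteoblast and osteocyte markers, led by Col1a1 and Col1a2, were present too. They summed to 36000 to 51600 CPM in contralateral, 49700 to 55600 in c-FosWT DMM and 28400 to 85200 in c-FosDCh DMM libraries. In every c-FosWT DMM library this sum was above that of the chondrocyte markers. Skeletal muscle markers summed to 69.7 to 6620 CPM, 285 to 10200 CPM and 110 to 1340 CPM in the same order.

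Levels per transcript length put Jund first among the 8 genes in 11 of 11 libraries. In contralateral cartilage Jund stood at 81.2 ± 12.2 RPKM (CPM per kilobase of exon; SD, n = 4). Junb followed at 28.8 ± 3.63, Jdp2 at 17.9 ± 2.65 and Jun at 9.09 ± 1.62 RPKM (SD, n = 4 each), and the contralateral ranges of these 4 genes did not overlap. Atf3 at 2.67 ± 0.48 and Batf at 2.47 ± 0.59 RPKM (SD, n = 4) had overlapping ranges. So did Batf3 at 0.781 ± 0.277 and Batf2 at 0.497 ± 0.218 RPKM (SD, n = 4), the lowest of the 8. Junb was second in 10 of 11 libraries and Jun came next after Jdp2 in most, while Atf3 and Batf exchanged places.

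Jund's share of the Jun genes varied little, and that of Jun varied more for its size. Of the summed Jun, Junb and Jund RPKM, Jund made up 68.73 ± 1.2% (SD, n = 11 libraries, range 66.91 to 70.83), Junb 23.43 ± 1.56% (range 21.15 to 25.77) and Jun 7.84 ± 1.0% (range 6.48 to 10.04). The log2 RPKM of Junb exceeded that of Jun by 1.08 to 1.9 over the libraries. By group, Jund's share was 68.13 ± 1.01% in contralateral (SD, n = 4), 69.11 ± 0.71% in c-FosWT DMM (SD, n = 3) and 69.06 ± 1.64% in c-FosDCh DMM libraries (SD, n = 4), with overlapping ranges. Over the same libraries the level of Jund itself spanned a 3.23-fold range, that of Jun 3.0-fold and that of Junb 2.88-fold.

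**Figure D1:**
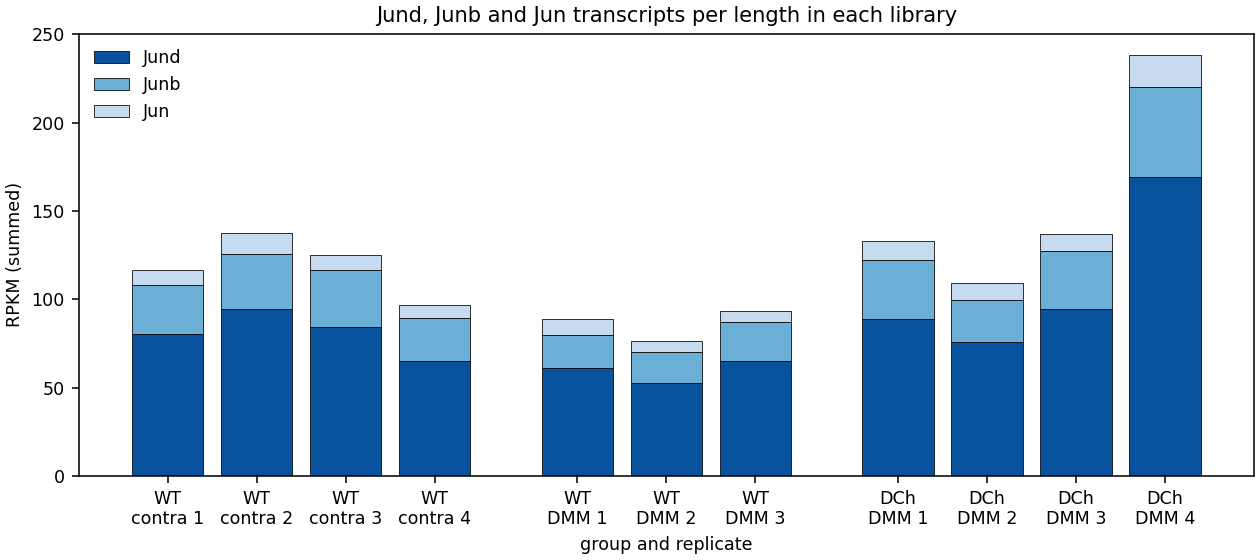
RPKM of Jund, Junb and Jun stacked for each of the 11 libraries, in 3 groups (contra, contralateral). The stacks differ in height, with c-FosDCh DMM replicate 4 the tallest, while Jund fills between 66.91 and 70.83% of each.

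Junb, which encodes a Jun protein that can restrain JUN, was the member with a called change. It lies on chromosome 8 (84974484 to 84978718, minus strand, GRCm38). Contralateral replicates 1 to 4 had 63.5, 71.6, 74.1 and 55.8 CPM, the c-FosWT DMM libraries 1 to 3 had 43.3, 41.1 and 50.7 CPM, and c-FosDCh DMM replicates 1 to 4 had 77.2, 54.2, 76.4 and 118 CPM. All c-FosWT DMM libraries lay below every other library, and c-FosDCh DMM replicate 4 lay above all. Between the DMM groups Junb rose by 0.86 ± 0.23 on the log2 scale in the c-FosDCh libraries (SE; 4 of 4 above all 3 c-FosWT DMM libraries; edgeR adjusted p = 0.0392). Between c-FosWT DMM and contralateral libraries the difference was -0.56 ± 0.23 (SE; edgeR unadjusted p = 0.0322, adjusted p = 0.219), which did not pass, although these groups did not overlap. The 95% interval of that difference ran from -1.06 to -0.06. In the animals with both knees, Junb was lower in the DMM knee in 3 of 3, by -0.55, -0.80 and -0.14 on the log2 scale. Jun, Jund, Atf3 and Batf2 were lower there in 2 of 3, and Jdp2, Batf and Batf3 in 1 of 3.

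The call for Junb rested on the whole set of libraries. Leaving out 1 library at a time gave log2 differences between the DMM groups of 0.61 to 1.01, and the call was kept in 3 of 11 such fits (adjusted p 0.0171 to 0.158): those without c-FosDCh DMM replicate 1, c-FosDCh DMM replicate 2 or contralateral replicate 4. It was lost without c-FosDCh DMM replicate 3 or 4, without any of the 3 c-FosWT DMM libraries and without contralateral replicate 1, 2 or 3. With the marrow score as a covariate the difference was 0.33 ± 0.18 (SE, edgeR adjusted p = 0.538), and with the chondrocyte score 0.68 ± 0.27 (SE, edgeR adjusted p = 0.251). The fit of the DMM groups alone gave 0.86 with adjusted p = 0.0993.

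**Figure D2:**
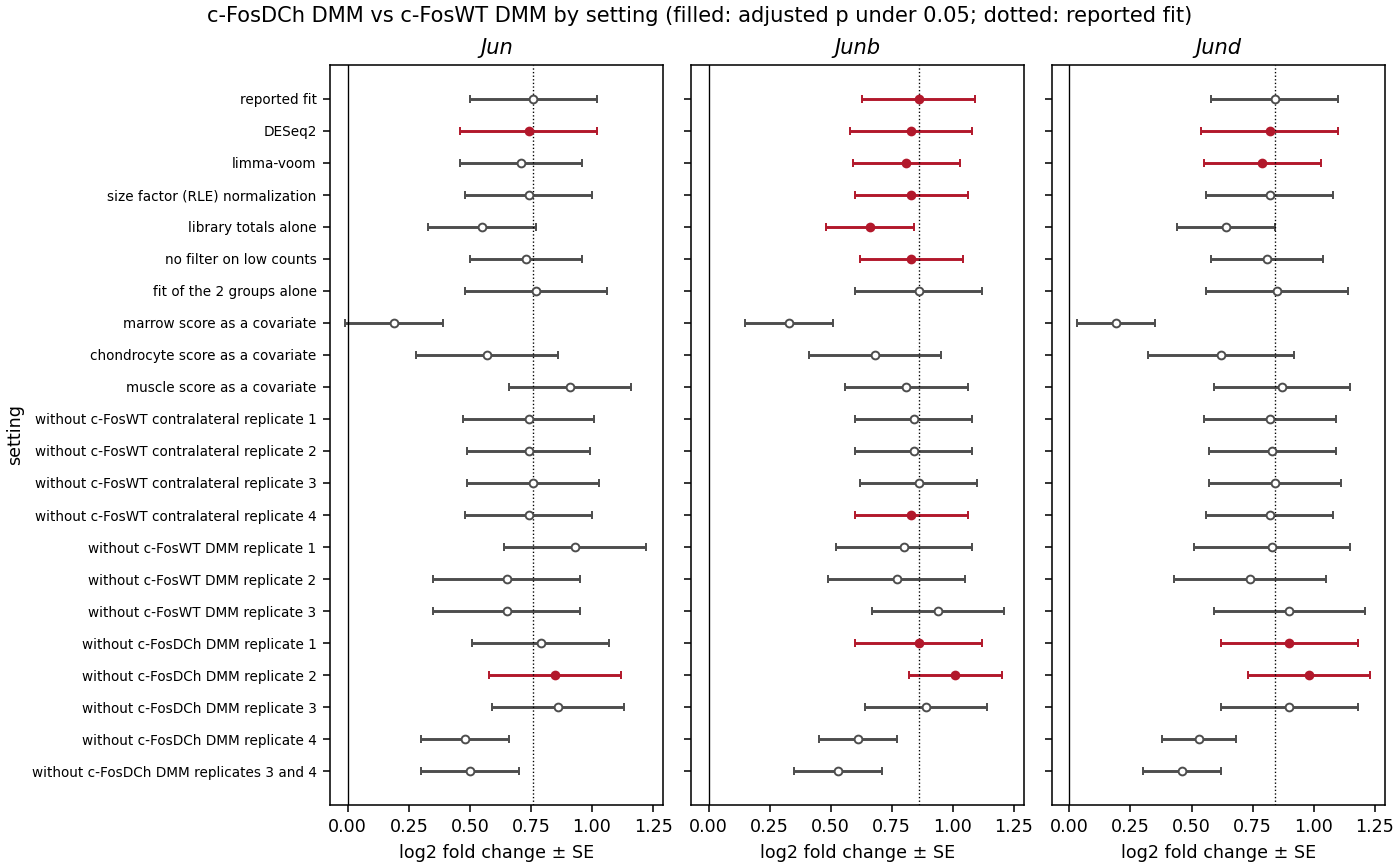
Log2 differences between c-FosDCh and c-FosWT DMM libraries with SE for Jun, Junb and Jund under each setting (rows: other tools, scalings and covariates, then fits without the named libraries); filled points passed an adjusted p under 0.05. All points are above 0, the lowest are 0.19, 0.33 and 0.19 with the marrow score as a covariate, and many of the Junb points are open.

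Jund, which encodes a Jun protein present in many resting cells, lies on chromosome 8 (70698949 to 70700616, plus strand) in a single exon. Its level was 134, 158, 140 and 109 CPM in contralateral replicates 1 to 4, 102, 87.4 and 109 CPM in c-FosWT DMM libraries 1 to 3, and 149, 127, 157 and 282 CPM in c-FosDCh DMM replicates 1 to 4. The c-FosDCh libraries lay above all c-FosWT DMM libraries, and the contralateral libraries overlapped with both, replicate 4 lying at the upper edge of the c-FosWT DMM range. The difference between the DMM groups was 0.84 ± 0.26 on the log2 scale (SE, edgeR adjusted p = 0.0512), just short of the threshold, and was 0.53 without c-FosDCh DMM replicate 4 (edgeR adjusted p = 0.0652). Between the c-FosWT groups it was -0.45 ± 0.25 (SE, edgeR adjusted p = 0.339).

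Jun, the founding member of the family, lies on chromosome 4 (95049034 to 95052222, minus strand), also in a single exon. It stood at 27.6, 36.4, 27.5 and 24.4 CPM in contralateral, 28.5, 19.6 and 19.3 CPM in c-FosWT DMM, and 33.4, 30.6, 30.0 and 57.8 CPM in c-FosDCh DMM libraries. The DMM groups did not overlap, whereas c-FosWT DMM replicate 1 lay within the contralateral range. The DMM groups differed by 0.76 ± 0.26 on the log2 scale (SE, edgeR adjusted p = 0.0667), and by 0.48 without c-FosDCh DMM replicate 4 (edgeR adjusted p = 0.108). Between the c-FosWT groups the difference was -0.37 ± 0.26 (SE, edgeR adjusted p = 0.424), and it was -0.23 without contralateral replicate 2.

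Atf3, a stress-induced partner of JUN, lies on chromosome 1 (191170296 to 191218039, minus strand) and was counted 50 to 121 times per library. Its level was 5.33, 4.5, 6.74 and 6.44 CPM in contralateral, 5.8, 3.38 and 2.78 CPM in c-FosWT DMM, and 8.69, 3.89, 4.19 and 8.97 CPM in c-FosDCh DMM libraries. The c-FosDCh libraries split into a high pair, replicates 1 and 4, and a low pair within the c-FosWT DMM range. The log2 difference between the DMM groups was 0.69 ± 0.37 (SE, edgeR adjusted p = 0.182) with a 95% interval from -0.13 to 1.5, and that between the c-FosWT groups was -0.53 ± 0.37 (SE, edgeR adjusted p = 0.421). The latter was -0.87 without c-FosWT DMM replicate 1 and -0.32 without replicate 3.

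Jdp2, which competes with JUN and FOS proteins at AP-1 sites, lies on chromosome 12 (85599027 to 85639878, plus strand). It had 34.0, 33.4, 45.1 and 41.3 CPM in contralateral, 37.7, 43.6 and 41.3 CPM in c-FosWT DMM, and 43.9, 34.2, 27.5 and 21.1 CPM in c-FosDCh DMM libraries. Replicates 3 and 4 of c-FosDCh DMM were the lowest of all 11, and replicate 1 was above every c-FosWT DMM library. The log2 difference between the DMM groups was -0.37 ± 0.22 (SE, edgeR adjusted p = 0.217), and without c-FosDCh DMM replicates 3 and 4 it was -0.08 ± 0.17 (SE, edgeR adjusted p = 0.818). Without c-FosDCh DMM replicate 1 it was -0.59 and passed (edgeR adjusted p = 0.0466), and without replicate 4 it was -0.23. The c-FosWT groups differed by 0.09 ± 0.22 (SE, edgeR adjusted p = 0.83), with a 95% interval from -0.39 to 0.57.

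The Batf genes were rare. Batf, known for its part in T and B cell differentiation, lies on chromosome 12 (85686669 to 85709087, plus strand). It had 4.45, 3.07, 2.56 and 3.83 CPM in contralateral, 3.05, 4.52 and 3.95 CPM in c-FosWT DMM, and 4.31, 2.38, 2.5 and 0.397 CPM in c-FosDCh DMM libraries. The last of these rests on 5 counts and is the lowest, and the groups overlapped (DMM groups: log2 difference -0.67 ± 0.52, SE, edgeR adjusted p = 0.338). That difference was -1.13 without c-FosDCh DMM replicate 1 and -0.34 without replicate 4.

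Batf3, needed for a class of dendritic cells, lies on chromosome 1 (191097847 to 191108945, plus strand). Its level was 1.25, 0.857, 1.01 and 1.86 CPM in contralateral, 0.82, 1.72 and 1.89 CPM in c-FosWT DMM, and 1.1, 0.465, 0.0626 and 0.556 CPM in c-FosDCh DMM libraries, the lowest being 1 count. Of the c-FosDCh libraries, 3 of 4 lay below all c-FosWT DMM libraries, as they did for Jdp2, Batf and Batf2. The log2 difference between the DMM groups, -1.45 ± 0.61, was the largest in size among the members but did not pass (SE, edgeR unadjusted p = 0.0374, adjusted p = 0.108). Without c-FosDCh DMM replicate 1 it was -2.06 and passed (edgeR adjusted p = 0.0432).

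Batf2, an interferon-induced gene of macrophages on chromosome 19 (6140983 to 6172476, plus strand), had 1 to 28 counts per library. Its level was 1.07, 2.0, 1.25 and 0.692 CPM in contralateral, 0.703, 1.2 and 0.946 CPM in c-FosWT DMM, and 1.61, 0.349, 0.688 and 0.0794 CPM in c-FosDCh DMM libraries. The groups overlapped in every comparison, though 3 of 4 c-FosDCh libraries lay below all c-FosWT DMM libraries. The 95% interval of the difference between the DMM groups (-0.48 ± 0.67, SE, edgeR adjusted p = 0.601) ran from -1.97 to 1.01 on the log2 scale. It was -1.33 without c-FosDCh DMM replicate 1, -0.25 without replicate 2, -0.15 without replicate 4 and -0.30 without c-FosWT DMM replicate 2.

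**Figure D3:**
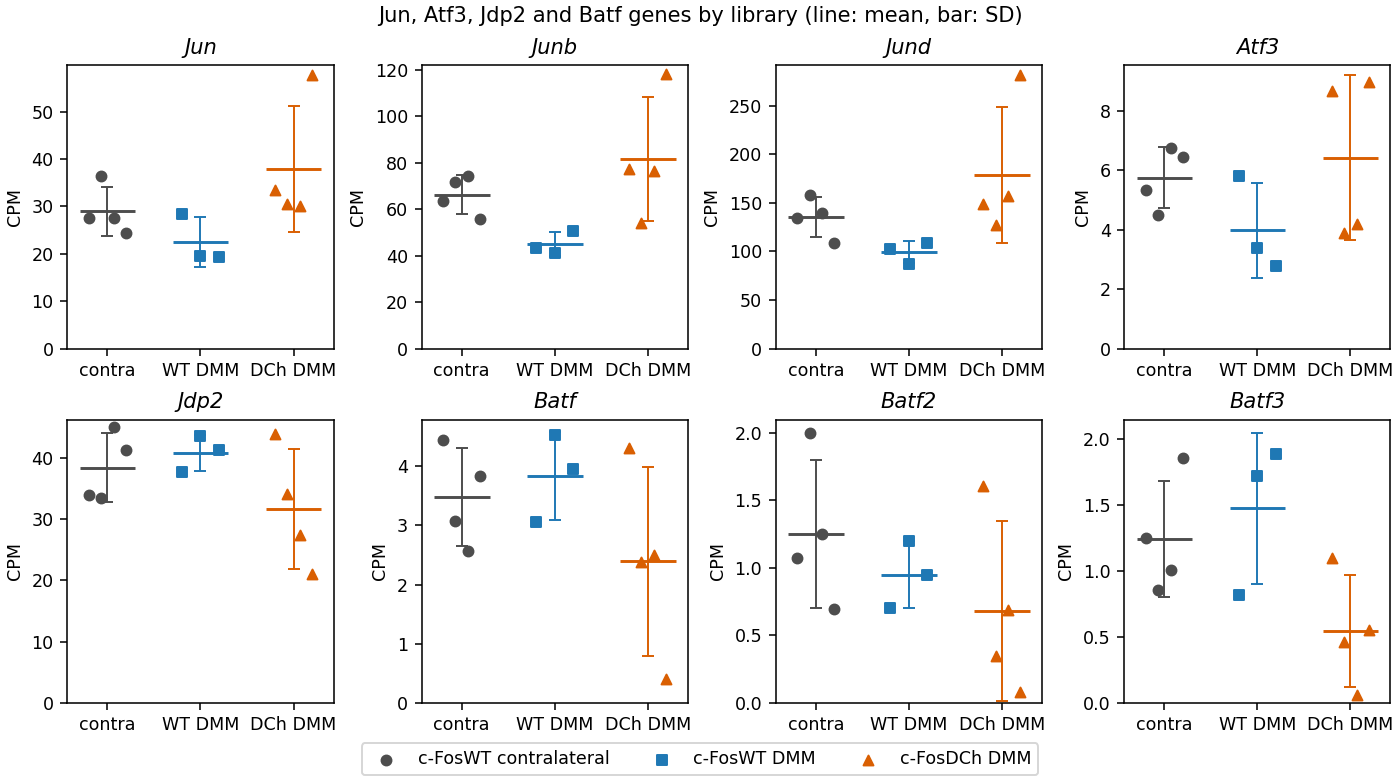
CPM of each of the 8 genes (linear axes from 0) in contralateral (contra), c-FosWT DMM and c-FosDCh DMM libraries; each point is a library, lines are group means and bars are SD. Jun, Junb and Jund have all c-FosDCh points above the c-FosWT DMM points, while Jdp2 and the Batf genes overlap between groups.

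Between DMM and contralateral knees of c-FosWT mice, 0 of 8 members passed, where 0% of the 18125 tested genes did. At an unadjusted p under 0.05, 1 member (Junb) and 19.9% of tested genes were counted, and DESeq2 and limma-voom also called 0 members, beside 4.98% and 0% of tested genes. The members' median log2 difference was -0.38, against -0.01 over all tested genes, and 5 of 8 were negative. Only Junb had groups that did not overlap, a pattern shown in the same direction by 13.1% of tested genes.

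Between c-FosDCh and c-FosWT DMM knees, 1 of 8 members (Junb) passed, where 14.4% of tested genes did (10.6% upward, 3.79% downward), and the members' share was near this background. DESeq2 called Jun, Junb and Jund, beside 29.6% of tested genes, and limma-voom called Junb and Jund, beside 17.8%. Jun, Junb and Jund did not overlap between the groups, a pattern seen upward in 17.2% of tested genes. The 3 Jun genes and Atf3 had positive log2 differences and Jdp2 and the Batf genes negative ones, with a member median of 0.16 against -0.01 over all tested genes. Scaling by library totals alone moved the median of all genes to -0.18 and gave Junb 0.66 ± 0.18 (SE, edgeR adjusted p = 0.046), Jund 0.64 and Jun 0.55. Under that scaling 54.5% of all called genes were higher, against 73.7% with TMM.

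Between c-FosDCh DMM and c-FosWT contralateral knees, where genotype and surgery differ together, 0 of 8 members and 0% of tested genes passed. At an unadjusted p under 0.05 the counts were 0 members and 8.34% of tested genes. DESeq2 and limma-voom called no member, beside 0.226% and 0% of tested genes. The Jun genes differed by 0.39 ± 0.23 (Jun), 0.30 ± 0.21 (Junb) and 0.40 ± 0.23 (Jund) on the log2 scale (SE; edgeR adjusted p = 0.615, 0.638 and 0.607), and Batf3 by -1.22 ± 0.58 (SE, edgeR adjusted p = 0.584). Without c-FosDCh DMM replicate 4 the Jun genes differed by 0.14 (Jun), 0.09 (Junb) and 0.12 (Jund). This comparison shares its libraries with the other two, so the 3 sets of values are not independent.

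**Figure D4:**
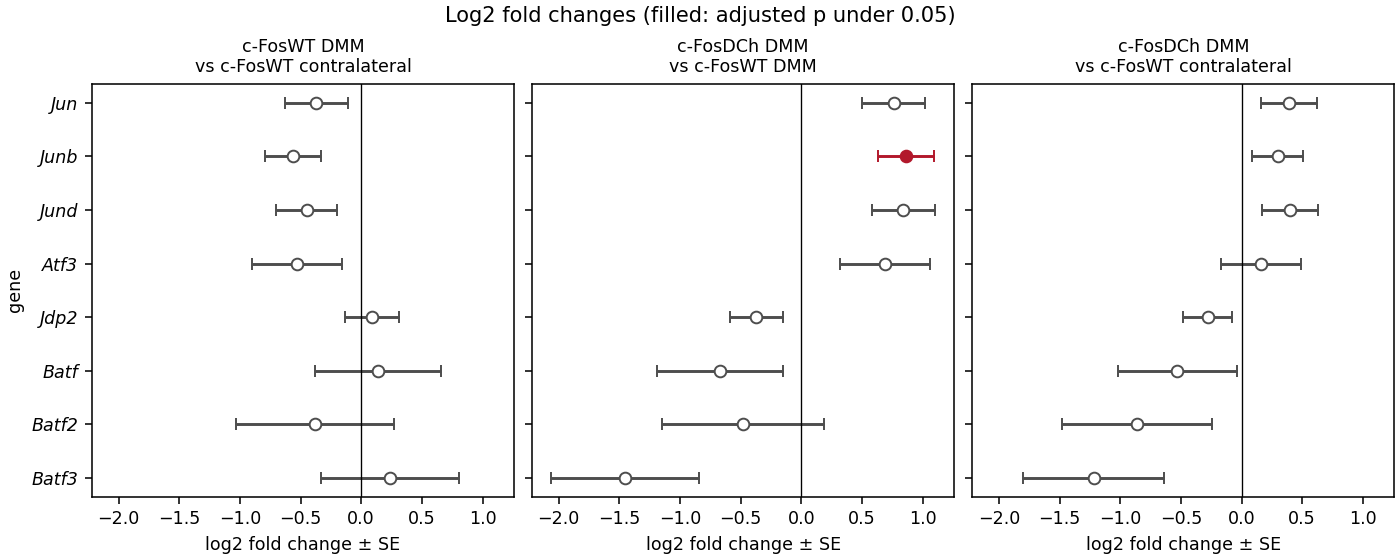
Log2 fold changes with SE (edgeR) of the 8 genes in the 3 comparisons; filled points passed an adjusted p under 0.05. Junb between the DMM groups, at 0.86, is the filled point.

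The Jun genes were lower in libraries with a higher marrow score. Over the 11 libraries, which are not fully independent since 3 animals gave a pair, log2 CPM of Jund and the marrow score had Pearson's r = -0.95 (permutation p = 9e-05, adjusted p = 0.0029) and Spearman's rho = -0.87 (permutation p = 0.00099, adjusted p = 0.017). These belong to 104 relations of a member with a marker score, over which p-values were adjusted. Leaving out the 2 libraries with scores farthest from the median, c-FosDCh DMM replicates 3 and 4, r was -0.83, and on deviations from group means it was -0.9. For Junb r was -0.9 (rho -0.85; permutation p = 0.00027 and 0.0018; adjusted p = 0.0035 and 0.019; -0.78 without the 2 farthest libraries). For Jun r was -0.89 (rho -0.71; permutation p = 0.00085 and 0.018; adjusted p = 0.0042 and 0.07; -0.77 without them). Scores of immune cells, osteoclasts and endothelial cells gave similar values, so the relation is not particular to erythroid and granulocyte markers. The remaining scores did not. For Jund r was 0.58 with the chondrocyte, -0.52 with the osteoblast and osteocyte, -0.4 with the fibroblast and -0.2 with the skeletal muscle score. None of these passed (permutation adjusted p = 0.12, 0.16, 0.28 and 0.61). For Jund r was -0.9 with the osteoclast score (rho -0.88), -0.89 with the dendritic cell score and -0.88 with the macrophage and monocyte score. For Jun the T and NK cell score gave the larger rho, -0.83 (permutation p = 0.0029, adjusted p = 0.025). For Junb the erythroid score alone gave r = -0.94. CPM are shares of a library, and the score and the gene levels use the same scaling.

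With the marrow score as a covariate, the difference between the DMM groups was 0.19 ± 0.2 for Jun, 0.33 ± 0.18 for Junb and 0.19 ± 0.16 for Jund (SE; edgeR adjusted p = 0.764, 0.538 and 0.708), and that of Jdp2 became 0.04 ± 0.19. No gene of the 18125 passed in that fit. In bulk tissue, fewer cells of a type and less RNA per cell cannot be told apart. The part of marrow cells in these differences was not tested further, and the score and the group are not independent terms here, since the group means of the score differ.

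Jdp2, Batf and Batf3 were related to such scores with the opposite sign. For Jdp2 and the marrow score r was 0.82 (rho 0.51, permutation p = 0.0045 and 0.11, adjusted p = 0.013 and 0.22). It was 0.29 without c-FosDCh DMM replicates 3 and 4, so the relation with this score rests on those libraries. With the dendritic cell and the T and NK cell score r was 0.92 and 0.91 (rho 0.71 and 0.65), and 0.57 and 0.59 without them. Permutation adjusted p was 0.0035 and 0.0038 for r, and 0.071 and 0.098 for rho. With the macrophage and monocyte score r was 0.9 (rho 0.45, permutation adjusted p = 0.006 and 0.27), and 0.35 without those libraries. For no score did the rho of Jdp2 pass an adjusted p under 0.05. Batf followed the score of macrophage and monocyte markers, led by Lyz2 and Csf1r, with r = 0.92 and rho = 0.83 (permutation p = 0.00037 and 0.0029; adjusted p = 0.0035 and 0.025), and r = 0.82 without the same 2 libraries. It was not particular to these markers: Batf had r = 0.94 with the granulocyte score and rho = 0.85 with both the dendritic cell and the T and NK cell score. With the marrow score it had r = 0.86 and rho = 0.6 (permutation p = 0.0034 and 0.056; adjusted p = 0.01 and 0.14), and r = 0.48 without the 2 libraries. All 16 macrophage and monocyte markers were tested, and they summed to 1410 to 2480 CPM in contralateral, 2050 to 2940 CPM in c-FosWT DMM and 433 to 2360 CPM in c-FosDCh DMM libraries, with none at 0. Batf3 followed the T and NK cell score with r = 0.8 and rho = 0.89 (permutation p = 0.0045 and 0.00054, adjusted p = 0.013 and 0.017). Without those libraries r was 0.87. Batf3 had a similar rho with the dendritic cell (0.88) and macrophage (0.86) scores, where r was 0.72 and 0.67 (permutation adjusted p = 0.05 and 0.081). On deviations from group means r was smaller, at 0.63 (T and NK cell), 0.51 (dendritic cell) and 0.41 (macrophage). The 16 T and NK cell markers, led by Thy1 and Nkg7, summed to 53.6 to 93.8 CPM, 79.2 to 121 CPM and 20.6 to 83.7 CPM in the same order. Thy1 is also on the fibroblast list, so this sum is not particular to T and NK cells. Cd3e had 0.714 to 2.45, 1.29 to 3.44 and 0.125 to 1.53 CPM, and Cd3g and Cd4 were at 0 in at least 1 c-FosDCh library. The part of these cells in the levels of the Batf genes was not tested.

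**Figure D5:**
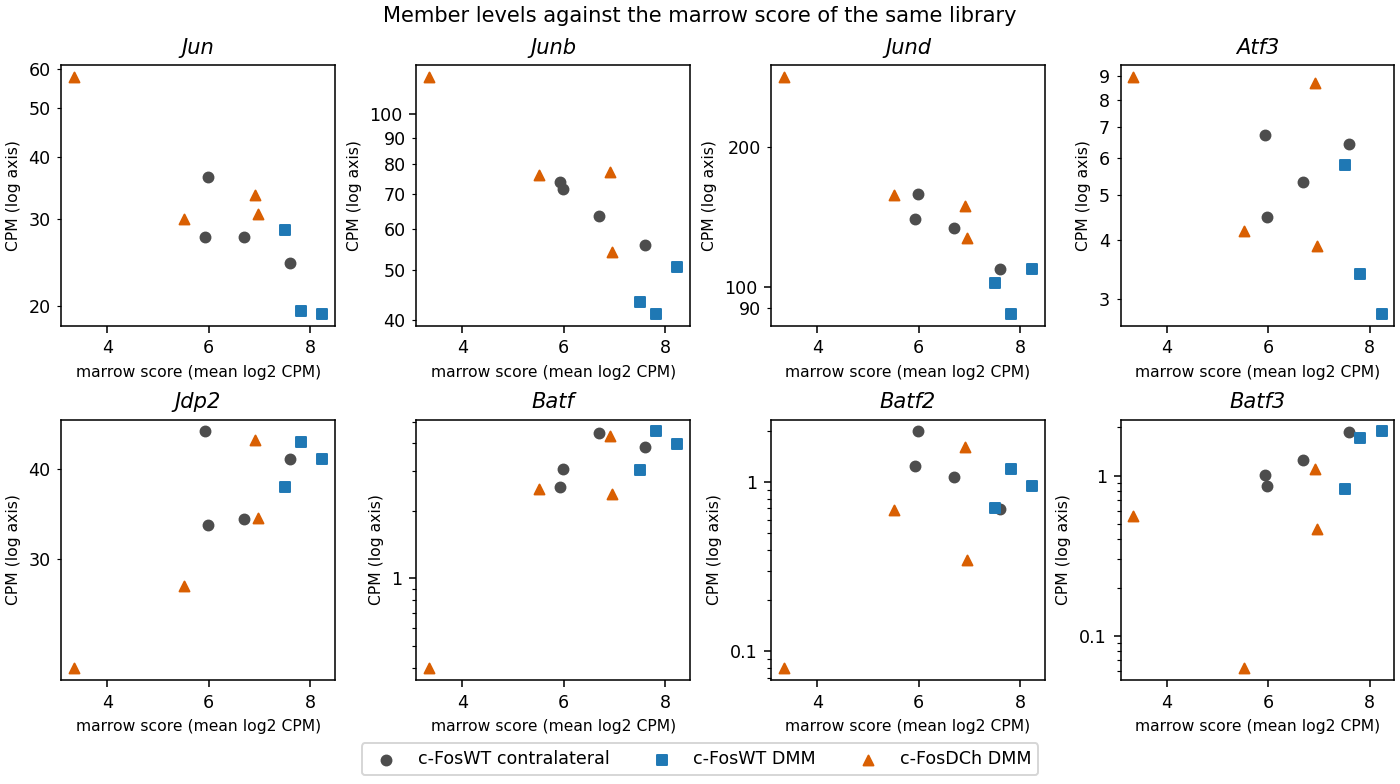
CPM of each gene (log axis) against the marrow score of the same library (mean log2 CPM of erythroid and granulocyte markers); each point is a library. Jun, Junb and Jund fall from left to right (r = -0.89, -0.9 and -0.95), and c-FosDCh DMM replicate 4, at a score of 3.34, is the leftmost point.

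Among the members, Junb and Jund were the closest pair, with r = 0.97 over 11 libraries (0.94 on deviations from group means), followed by Jun and Jund with 0.92 (0.84). Batf had r = -0.83 with Jund and 0.82 with Jdp2. These values share libraries and scaling and are given as a description. Over 12610 genes (mean log2 CPM of 1 or more), those whose log2 CPM was most like Jund were Uap1, Med25 and Lrrc41 (r = 0.98 each). For Junb they were Lrrc41 (0.98), Zfp324 and Gas1 (0.97 each), and for Jun they were Apba3 (0.97), Jmjd4 and Cdkn1a (0.96 each). For Batf they were Dctpp1 and Igll1 (0.98 each) and Arpp21 (0.97), of which Igll1 encodes a part of the pre-B cell receptor. Igll1 was at 0 in at least 1 c-FosDCh library. With the B cell score Batf had r = 0.84 and rho = 0.59 (permutation adjusted p = 0.019 and 0.15). Without c-FosDCh DMM replicates 3 and 4 that r was 0.29. Jdp2 was closest to Rnd1 (0.97), Btnl9 and H1fx (0.96 each), and Atf3 to Snrnp27 and Nabp2 (0.89 each) and Map1lc3a (0.86). Batf2 and Batf3 were too low to be ranked.

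Fos proteins are common dimer partners of Jun proteins. Of the 4 Fos genes, Fosb rose between the DMM groups, by 2.16 ± 0.38 on the log2 scale (SE, edgeR adjusted p = 0.0332), while Fos with 0.98 ± 0.35, Fosl1 with 1.47 ± 0.62 and Fosl2 with 0.15 ± 0.16 did not pass (adjusted p = 0.0736, 0.109 and 0.476). The summed Jun genes exceeded the summed Fos genes by 2.04 ± 0.14 (n = 4), 1.70 ± 0.31 (n = 3) and 2.10 ± 0.15 (n = 4) on the log2 RPKM scale (SD) in contralateral, c-FosWT DMM and c-FosDCh DMM libraries.

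Regulators and partners were read from lists of pathway genes, between the DMM groups, where 10.6% of all tested genes were called higher and 3.79% lower. Of 16 other leucine zipper partners of Jun proteins, 1 rose and 0 fell. It was Maff, a small MAF protein, at 29.4 ± 20.1 CPM (SD, n = 4) against 5.46 ± 2.0 CPM (SD, n = 3), a log2 difference of 2.42 ± 0.51 (SE, edgeR adjusted p = 0.0332). Of 21 kinases and scaffolds of the JNK, ERK and p38 cascades, 1 rose, the JNK scaffold Mapk8ip1 (0.69 ± 0.2, SE, edgeR adjusted p = 0.0474), and 0 fell. Of 15 phosphatases and degradation factors of the pathway, 4 rose and 0 fell. They included Dusp1 (2.30 ± 0.53) and Dusp14 (1.77 ± 0.41), which dephosphorylate MAP kinases (SE, edgeR adjusted p = 0.0332 for both).

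Of 28 immediate early genes outside AP-1, 9 rose and 1 fell. Sgk1, a growth factor-induced kinase gene, stood at 219 ± 90.0 against 64.3 ± 17.8 CPM, and Arc, an immediate early gene best known from neurons, at 11.6 ± 2.18 against 3.95 ± 0.686 CPM (SD, n = 4 and 3; edgeR adjusted p = 0.0332 for both). The one that fell was Btg2, an antiproliferative gene (-0.73 ± 0.2, SE, edgeR adjusted p = 0.0404). Of 12 heat shock genes, 2 rose and 1 fell: Hspa1a (1.72 ± 0.46) and Hspa1b (2.01 ± 0.56) are near-identical copies whose counts are uncertain, and Hspd1, a mitochondrial chaperonin, fell by 0.73 ± 0.14 (SE, edgeR adjusted p = 0.0394, 0.0422 and 0.0332).

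Of 19 tested genes reported elsewhere as AP-1 targets, 4 rose and 0 fell, although the median log2 difference of the list was -0.58. Vegfa, an angiogenic factor, rose by 1.45 ± 0.31 and Lox, a collagen cross-linking enzyme, by 1.69 ± 0.4 (SE, edgeR adjusted p = 0.0332 and 0.0339). Of 18 genes of the integrated stress response, in which Atf3 is induced, 1 rose and 1 fell. These were Ddit4, an inhibitor of mTORC1 (1.53 ± 0.31), and Ppp1r15a, which directs dephosphorylation of eIF2 alpha (-1.15 ± 0.24; SE, edgeR adjusted p = 0.0332 for both).

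Interferon and IRF genes, with which the BATF proteins work, were mostly lower. Of 24, 1 rose and 5 fell, 23 had a negative log2 difference, and the median was -1.12 against -0.01 over all tested genes. Rsad2, an antiviral gene, stood at 29.7 ± 19.2 against 134 ± 12.3 CPM (SD, n = 4 and 3), a log2 difference of -2.17 ± 0.55 (SE, edgeR adjusted p = 0.0366). Irf9, which binds STAT proteins, fell by 0.90 ± 0.22, and Stat3, the transducer of interleukin signals, rose by 0.44 ± 0.11 (SE, edgeR adjusted p = 0.0349 and 0.0344). Of the immune markers, 16 of 16 T and NK cell genes and 15 of 16 macrophage genes were also negative in this comparison, with medians of -1.44 and -1.02, and their part in the interferon values was not tested. In the other comparisons, 0 genes of any of these 9 lists passed.

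Some members overlap a gene on the opposite strand, and the sources used here do not say which strand column was deposited, so their counts are uncertain. Junb shares 173 exonic bases with Prdx2, which is abundant in red cell precursors and stood at 305 ± 99.4 CPM in c-FosWT DMM (SD, n = 3) and 149 ± 43.7 CPM in c-FosDCh DMM libraries (SD, n = 4). Prdx2 thus differed in the direction opposite to Junb, by -1.04 ± 0.29 on the log2 scale (SE, edgeR adjusted p = 0.0423). Jund shares 877 bases with Gm11175 (721 counts in all libraries, against 24268 for Jund), Jun 232 bases with Junos, Jdp2 165 bases with Gm47863 and Batf2 51 bases with Arl2.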

How the data were processed

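Raw gene counts were deposited for 11 libraries of poly(A) RNA, 1 file each, in the layout that STAR writes; per the submitters' processing notes, the authors used STAR 2.6.1a, RSEM and DESeq2 1.22.2 on GRCm38. The sources used here give neither the annotation release nor the strand column. Read classes that name no gene (33.18 to 41.97% of reads without a feature among them) stayed out of library sizes and tests. Symbols came from GENCODE M21 for 55240 of 55421 genes.

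Counts were tested with edgeR 4.0.16 in R 4.3.3: filterByExpr kept 18125 genes, TMM scaled, and all 11 libraries entered a quasi-likelihood fit with group as its term. Tests were two-sided, with Benjamini-Hochberg adjustment over all tested genes and a threshold of 0.05. Each SE equals the size of the log2 fold change over the root of F, and 95% intervals use the t quantile on the degrees of freedom of the fit. The log2 CPM of scores and correlations used a prior count of 2, correlations 100000 permutations. The fit was tested on simulated counts with log2 changes of 1 and 2 and 1 dispersion, 0.05, for every gene. The spread of the real data was larger (common biological coefficient of variation 0.315). That simulation therefore does not show how the fit performs on them. DESeq2 1.42.0 and limma 3.58.1 were alternatives.

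The 22 gene lists, that of the members among them, were chosen with earlier results of these data known. Named genes were all members and Fos genes, up to 2 called genes of smallest p per list, direction and comparison, and the 3 genes most like each member. Replicates are separate animals within a group, by the titles; c-FosDCh libraries were numbered in accession order, and 2 of them carry the same number in their source label, though their titles name different animals. The titles also pair 3 contralateral with 3 DMM libraries by animal. Within these pairs, deviations from group means correlated at -0.17, -0.18 and 0.25. The highest correlation of the same DMM libraries with a contralateral library of another animal was 0.52, 0.23 and 0.17. No batch or date is in the labels. Marker scores were compared with an exact permutation test.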

Additional observations from a re-analysis of the deposited data

Results flagged for a closer look

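Among the c-FosDCh DMM libraries, Jun in replicate 4, at 57.8 CPM, was far from the others: its gap to the nearest library took up 0.877 of the group's range, above Dixon's critical value for 4 samples. The other 3 libraries had 30.0 to 33.4 CPM. These CPM depend on the TMM factor, which was 0.819 for replicate 4 and 0.996, 0.963 and 0.939 for replicates 1 to 3. A smaller factor gives a higher CPM. Whether the value would also be flagged on library totals alone was not tested. Of 16 groups of 4 libraries tested, 1 gave such a value, and chance gives about 1 in 20. The same library had the highest Junb, Jund and Atf3, the lowest Jdp2, Batf and Batf2 and the lowest marrow score (3.34).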

How the results depend on the processing

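Between the c-FosWT groups, the count of called genes was 0 except with DESeq2 (902), and 0 members passed in any fit. With a replicate block (the animal, 3 pairs) the counts were also 0 genes and 0 members, Junb differed by -0.49 (edgeR adjusted p = 0.221), and the block changed no call. The marrow score as a covariate reversed Jdp2 (-0.19), Batf (-0.68) and Batf3 (-0.16), and the chondrocyte score reversed the same genes (-0.18, -0.34 and -0.46). Between the DMM groups, DESeq2 called 5358 genes and 3 members, limma-voom 2 members, and the fit with no filter 1443 genes. Fits of the DMM groups alone, with the marrow, chondrocyte or muscle score as a covariate, or without c-FosDCh DMM replicates 3 and 4 called 0 genes and 0 members. The muscle score and the removal of those 2 libraries were chosen after seeing the data. The marrow score reversed Jdp2 (0.04), Batf (0.44) and Batf2 (0.14), and the chondrocyte score reversed Batf2 (0.14). Leaving out each library in turn gave 0 to 4626 called genes and 0 to 4 called members. The 4 were Junb, Jund, Batf3 and Jdp2, without c-FosDCh DMM replicate 1. Between c-FosDCh DMM and contralateral libraries, DESeq2 called 41 genes, leaving out each library gave 0 to 1, library totals reversed Atf3 (-0.02, and -0.03 to 0.34 over left-out libraries), and Jdp2 was 0.04 without c-FosDCh DMM replicates 3 and 4. DESeq2 gave no adjusted p for Batf2 and Batf3 between the c-FosWT groups.

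Marker score differences that changed sign as libraries were left out were, between c-FosDCh DMM and contralateral libraries, chondrocyte (-0.29 to 0.07) and skeletal muscle (-1.51 to 0.61), between the c-FosWT groups skeletal muscle (-0.44 to 2.34), and between the DMM groups osteoblast and osteocyte (-0.35 to 0.27) and fibroblast (-0.30 to 0.18). The cause of these changes was not tested. Batf2 and Batf3 had as few as 1 count in a library, and whether depth or the spread between animals limits their tests was not tested.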
